A study of Mus musculus with 2 samples.

Results

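The Hox genes encode homeodomain transcription factors that lie in 4 clusters, Hoxa, Hoxb, Hoxc and Hoxd, on separate chromosomes. They were chosen by name: every probe set that carries exactly 1 gene symbol, the symbol being Hoxa, Hoxb, Hoxc or Hoxd followed by a number. That gave 48 probe sets for 33 genes, of 34958 probe sets with 1 symbol on the arrays. RefSeq (GRCm38.p6) lists 39 such genes, and the other 6 are not analysed here.

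The study profiled MOS-J, a mouse osteosarcoma cell line, on Affymetrix 3' expression arrays. One array holds MOS-J cells labelled as transfected with a lentivirus for human DKK1 (group DKK1), and the other MOS-J cells labelled as transfected with a control lentivirus (group control). DKK1 is a secreted inhibitor of Wnt signalling, and the comparison asks how the tumour cells' expression differs when they carry it. Both groups share the cell line, and the protocol mentions G418-selected clones and also stable lines from a plasmid route, later labelled with a red fluorescent protein and sorted. The sources used here do not say whether each profiled sample was 1 clone or a pool. With 1 array a group there is no replicate error and no test, and every difference given here compares these 2 arrays, where culture, batch and transgene cannot be told apart.

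Hox genes were copied from 1 ancestral cluster, so genes with the same number in different clusters form a paralog group of closely related proteins. Within a cluster, genes of low number are active towards the head end of the embryo and genes of high number towards the tail and the limb tips. Mesenchymal cells, bone-forming cells among them, are known to keep a pattern of active Hox genes that reflects where in the body they came from. Polycomb complexes hold inactive clusters silent, trithorax complexes keep active ones open, and retinoic acid switches on genes at the low-numbered end.

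The clusters also hold microRNA genes, whose mature sequences are shown because their places mark the stretches of each cluster described below. Capitals mark the seed, bases 2 to 8, and the sequences are those of RefSeq on GRCm38.p6. Mir10a lies inside the Hoxb3 transcription unit, between Hoxb5 and Hoxb4 (chr11:96317186-96317208, plus strand), and Mir10b inside Hoxd3 and Hoxd4 (chr2:74726074-74726096, plus strand). Mir196a-1 lies between Hoxb13 and Hoxb9 (chr11:96265187-96265208, plus strand), and Mir196a-2 between Hoxc10 and Hoxc9 (chr15:102973365-102973386, plus strand). Both give the same mature miR-196a-5p. Mir196b lies between Hoxa9 and Hoxa10 (chr6:52230129-52230150, minus strand), and Mir615 inside Hoxc5 (chr15:103014969-103014990, plus strand).
miR-10a-5p: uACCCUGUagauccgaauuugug
miR-10b-5p: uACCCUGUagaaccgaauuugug
miR-196a-5p: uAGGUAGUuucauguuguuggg
miR-196b-5p: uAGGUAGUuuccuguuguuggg
miR-615-3p: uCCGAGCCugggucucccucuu
The miR-10 pair shares 1 seed and the miR-196 pair another. miR-196 is known to cut the messenger RNA of Hoxb8 in the mouse embryo. Mature microRNAs are not analysed here.

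Values are MAS5 signals, a linear brightness with no unit, and differences are DKK1 minus control on the scale log2(signal + 16.6), which understates the change of dim genes. Probe sets averaging at least 71.3 over both arrays, the median of all probe sets, are termed measured, and those below it dim. Each gene takes the average difference of its measured probe sets. The words called higher and called lower mean a difference of 1 or more (2-fold) whose sign all measured probe sets of the gene share. Signals of different probe sets are not on 1 scale, so no gene's level is set against another's. A signal also cannot tell fewer expressing cells from less RNA per cell.

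In the DKK1 cells 3 of 4 measured Hoxb genes and 5 of 7 measured Hoxc genes were called higher, no Hoxa gene was called, and Hoxd genes were dim on both arrays. Of the 33 genes, 18 had a measured probe set and 15 were dim throughout. Of the 18, 8 were called higher, 0 were called lower and 10 were not called. Those 8 make up 44.4% of the measured Hox genes, where 11.7% of all 11058 measured genes were called higher, 6.91% lower and 18.6% in either direction. The filter uses the mean of both arrays, so Hoxb5 and Hoxb6, with control signals below it, counted as measured through their DKK1 signals alone and were bound to differ. The other 6 of the 8 had both signals above the filter. With dim signals raised to the filter the same 8 were called, where 11.4% of all genes were called higher. The median difference was 0.88 over the measured Hox genes and 0.10 over all measured genes. The difference was above 0 for 17 of the 18 Hox genes, and for 55.9% of all measured genes. Of the 23 measured Hox probe sets, 22 had the higher signal on the DKK1 array, where 56.7% of all 22499 measured probe sets did. Hoxa2 and 1 probe set of Hoxa3 also passed the filter through the DKK1 array alone, so their direction was fixed.

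**Figure D1:**
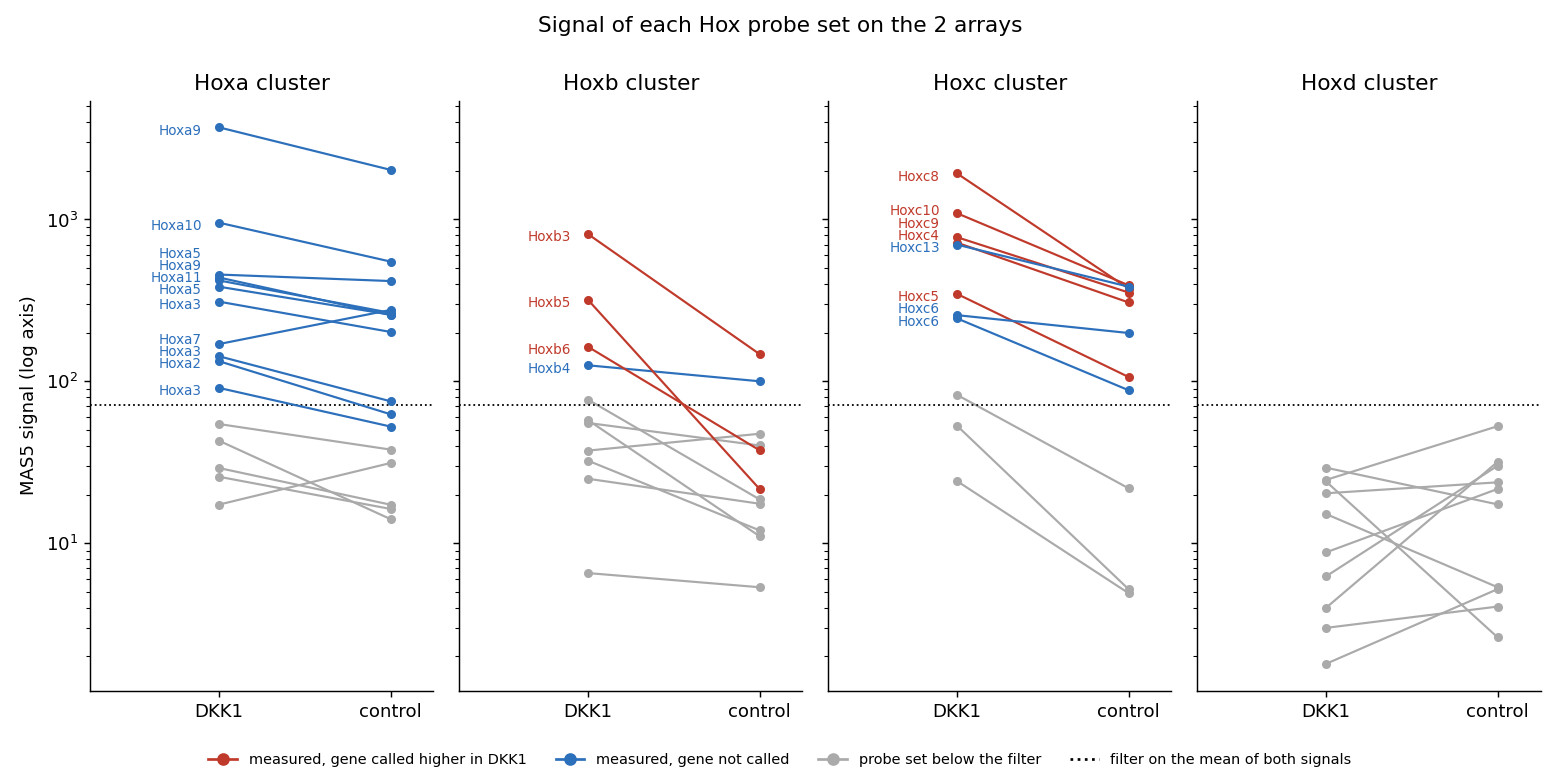
MAS5 signal on a log axis of each of the 48 Hox probe sets in DKK1 cells (left) and control cells (right), 1 panel a cluster and 1 line a probe set, with the dotted line at the filter of 71.3. The lines of measured probe sets slope down from DKK1 to control except that of Hoxa7, which slopes up, and the 10 Hoxd probe sets stay below the filter on both arrays.

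Of the Hoxb genes, Hoxb3, Hoxb5 and Hoxb6 were called higher. Hoxb5, which in the embryo takes part in patterning the trunk and in gut and lung development, had a signal of 319 in DKK1 cells against 21.6 in control cells. The control signal is dim, so the difference of 3.13 depends on the pseudocount, and with dim signals raised to the filter the gene was at least 4.47-fold higher. Hoxb3, a hindbrain and neck patterning gene, had 812 in DKK1 cells against 147 in control cells, a difference of 2.34 with both signals above the filter. Its second probe set was dim on average, at 77.1 in DKK1 cells against 18.7 in control cells. Hoxb6, a trunk gene also expressed in early mesoderm, had 164 in DKK1 cells against 37.5 in control cells (1.73, at least 2.30-fold). Hoxb4, known for expanding blood stem cells when overexpressed, had 126 in DKK1 cells against 100.1 in control cells and was not called, at 0.29. The sign of the Hoxb4 difference was not stable, at −0.02 after quantile normalization, −0.02 after loess and −0.27 with scaling by the poly-A controls. Its dim probe set, at 57.7 in DKK1 cells against 11.1 in control cells, would raise it to 0.85.

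The 4 measured Hoxb genes are neighbours in the RefSeq order of the cluster, on the stretch that holds Mir10a. The 5 Hoxb genes on either side of them with a probe set, Hoxb1 and Hoxb2 at the anterior end and Hoxb7, Hoxb9 and Hoxb13 at the posterior end, were dim. The 7 dim Hoxb probe sets ran from 6.55 to 77.1 in DKK1 cells and from 5.35 to 47.5 in control cells. In RefSeq, Hoxb3 spans Hoxb4, so transcripts of the long Hoxb3 unit and of Hoxb4 come from the same stretch. Whether the probe sets of these genes separate such transcripts was not tested.

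All 7 Hoxc genes with a probe set were measured, and each had a positive difference, with 5 called higher. Hoxc8, a gene of the thoracic skeleton, had a signal of 1925 in DKK1 cells against 374 in control cells, a difference of 2.31. Hoxc5 had 347 in DKK1 cells against 106 in control cells (1.56). Its other 2 probe sets were dim, at 53.2 and 24.2 in DKK1 cells against 5.20 and 4.92 in control cells. Hoxc10, active in the lumbar region and hindlimb, had 1093 in DKK1 cells against 392 in control cells (1.44). Hoxc5, Hoxc8 and Hoxc10 each had both signals above the filter on the probe set measured. Hoxc4, a gene of the neck region, had 719 in DKK1 cells against 307 in control cells (1.18). Hoxc9, a repressor of limb-type motor neuron fates in the thoracic spinal cord, had 777 in DKK1 cells against 354 in control cells (1.10), just past the 2-fold line.

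Hoxc6 and Hoxc13 were not called. Hoxc6 had 245 and 257 in DKK1 cells against 88.2 and 199 in control cells on its measured probe sets. They disagreed on the size, giving a mean of 0.83 with an SD of 0.69 between the 2. With its dim probe set included, at 82.6 in DKK1 cells against 21.9 in control cells, Hoxc6 reached 1.01. With its brightest probe set alone it was at 0.34, and on the poly-A controls at 0.25. Hoxc13, which drives keratin genes in hair and nails, had 699 in DKK1 cells against 385 in control cells (0.84). The Hoxc differences therefore ran from 0.83 (Hoxc6) to 2.31 (Hoxc8), genes next to each other in the cluster, with a median of 1.18. All 7 remained above 0 under each scaling tried, while the calls of Hoxc4 (0.57), Hoxc5 (0.98), Hoxc9 (0.48) and Hoxc10 (0.82) ended on the poly-A controls.

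Hoxa genes showed a smaller difference of the same sign, with 1 exception. None of the 7 measured genes was called, and the median was 0.67 with a range of −0.65 to 0.92. Hoxa9, a gene of the posterior trunk and of blood progenitors, had signals of 3707 and 438 in DKK1 cells against 2025 and 257 in control cells. Its difference was 0.80, with an SD of 0.09 between the 2 probe sets. Hoxa10, which patterns the lumbar vertebrae and uterus and promotes osteoblast genes, had 955 in DKK1 cells against 549 in control cells (0.78). Hoxa11, required for the forearm bones, had 420 in DKK1 cells against 265 in control cells (0.63). These 3 posterior genes, on the stretch that holds Mir196b, thus lay between 0.63 and 0.80. A second Hoxa10 probe set was dim, at 43.0 in DKK1 cells against 14.1 in control cells.

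At the anterior end, Hoxa2, which specifies the second pharyngeal arch skeleton, had 133 in DKK1 cells against 62.6 in control cells (0.92). Its control signal was dim and its plain ratio was 2.13, and it was called with a smaller pseudocount (1.04) and on the hybridisation controls (1.23). It fell to 0.64 after quantile normalization, 0.57 after loess and 0.38 on the poly-A controls. With dim signals raised to the filter Hoxa2 was at least 1.87-fold higher. Hoxa3, needed for the thymus and parathyroid, had 311, 143 and 91.1 in DKK1 cells against 202, 75.3 and 52.6 in control cells on its measured probe sets (0.67, SD 0.11). Its remaining probe set was dim, at 29.2 in DKK1 cells against 17.3 in control cells. The last of the measured ones lay just inside the filter, with a mean signal of 71.9, and the nearest Hox probe set outside it was the third of Hoxc6, with 52.2. Hoxa5, a gene of lung and neck development, had 457 and 384 in DKK1 cells against 417 and 258 in control cells (0.34, SD 0.29), and turned to −0.28 on the poly-A controls. Hoxa7, a gene of the trunk, was the 1 measured Hox gene with the lower signal in DKK1 cells, 170 against 276 in control cells, a difference of −0.65. It stayed below 0 under each alternative that measured it, from −1.24 to −0.30, the lower end being a call on the poly-A controls. Hoxa4 and Hoxa13 were dim, and the 5 dim Hoxa probe sets ran from 17.3 to 54.5 in DKK1 cells and from 14.1 to 37.9 in control cells.

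No Hoxd gene was measured on either array. The 10 probe sets of Hoxd1, Hoxd3, Hoxd8, Hoxd9, Hoxd10, Hoxd11, Hoxd12 and Hoxd13 ran from 1.80 to 29.3 in DKK1 cells, with a median of 11.98, and from 2.62 to 52.9 in control cells, with a median of 19.5. Hoxd10 to Hoxd13 are the genes that pattern the limb tips. Detection calls were not used here. A dim signal shows only that these probe sets did not reach the filter.

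**Figure D2:**
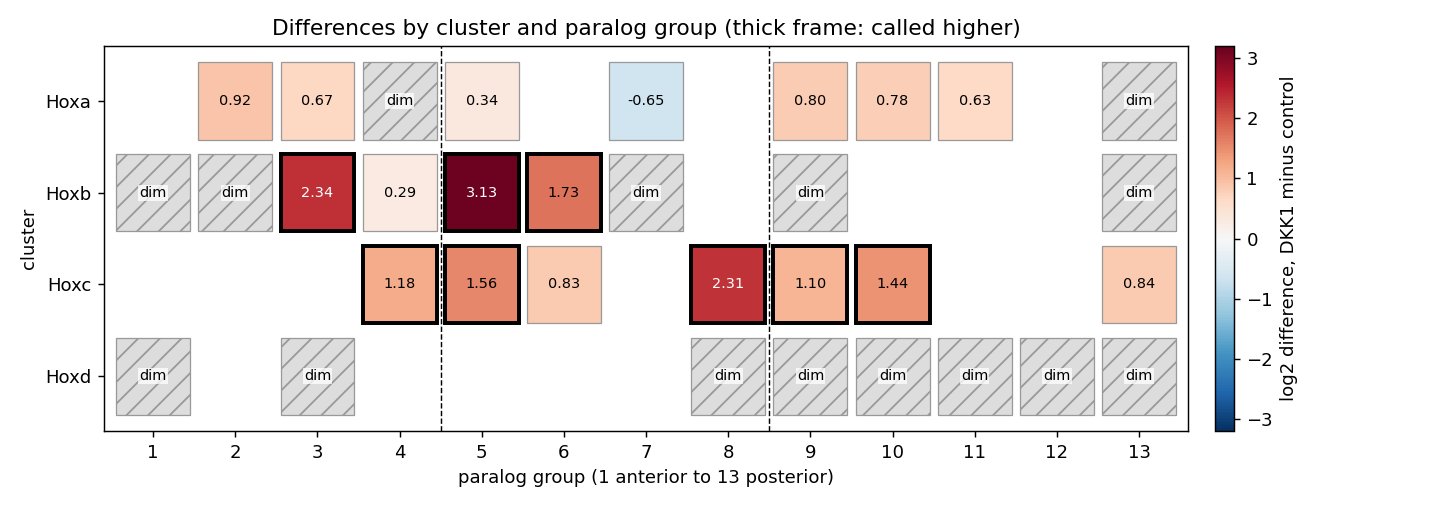
Log2 difference (DKK1 minus control) of each Hox gene by cluster (rows) and paralog group (columns), with red for higher in DKK1 cells, hatched cells for genes with dim probe sets alone, blank places where no gene was analysed, and thick frames for genes called higher. The framed genes lie in the Hoxb and Hoxc rows, from group 3 to group 10, and the Hoxd row holds no measured gene.

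By place along the clusters, the order of the median differences depended on the filter, the pseudocount and the normalization. Of 9 central genes (groups 5 to 8), 7 were measured, 4 were called higher and the median was 1.56. Among those 4, Hoxb5 and Hoxb6 passed the filter through the DKK1 array alone and were bound to differ. The other central genes had −0.65 (Hoxa7), 0.34 (Hoxa5), 0.83 (Hoxc6), 1.56 (Hoxc5) and 2.31 (Hoxc8). Of 10 anterior genes (groups 1 to 4), 5 were measured, 2 were called higher and the median was 0.92. That median is the value of Hoxa2, which also passed the filter through the DKK1 array alone. Of 14 posterior genes (groups 9 to 13), 6 were measured, 2 were called higher and the median was 0.82. The ranges overlapped, at −0.65 to 3.13 for central, 0.29 to 2.34 for anterior and 0.63 to 1.44 for posterior genes. The top of the central range is Hoxb5, whose value with dim signals raised to the filter was 2.16, below Hoxb3 (2.46) and Hoxc8 (2.36). With the filter at the 75th percentile the median was 1.22 for central, 1.76 for anterior and 0.87 for posterior genes. Only 9 Hox genes were then measured, with Hoxb3 and Hoxc4 as the anterior ones and Hoxa5 (0.13) and Hoxc8 (2.31) as the central ones. The anterior median fell below the posterior one after quantile normalization (0.64 against 0.72) and loess (0.57 against 0.75). With 4 times the pseudocount it did so too (0.63 against 0.76). The central median, with Hoxb5 and Hoxb6 counted in it, remained above both in these cases.

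In the measured pairs, paralogs in Hoxb and Hoxc had larger differences than those in Hoxa, but Hoxb5 was bound to differ. In all 3 groups with a measured Hoxc and Hoxa gene, the Hoxc gene differed more, by 1.23 in group 5, 0.66 in group 10 and 0.30 in group 9 on the log2 scale. In both groups with a measured Hoxb and Hoxa gene, the Hoxb gene differed more, by 2.80 in group 5 and 1.67 in group 3. With dim signals raised to the filter these gaps were 1.81 and 1.83. Between Hoxb and Hoxc the order varied, with gaps of 1.57 in group 5, 0.90 in group 6 and −0.90 in group 4. On the raised signals they were 0.46, 0.28 and −0.90. Hoxb5 (group 5) and Hoxb6 (group 6) counted as measured through their DKK1 signals alone and were bound to differ. Raising signals to the filter does not undo that. Of the pairs with a Hoxb gene, only those of groups 3 and 4 hold a Hoxb gene free of it. Probe sets of the same gene spread around their mean with a pooled SD of 0.45 over the arrays, and the gap of group 9, like the raised one of group 6 between Hoxb and Hoxc, was below it. That SD describes technical agreement within the arrays and is no replicate error.

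Of the called genes, Hoxc4 alone has a promoter in the RefSeq table used. Its 250 bases before the transcription start are shown with those of its paralogs Hoxb4, not called, and Hoxd4, with no value, because all 3 hold the same 6 bases. Capitals mark TGACCT, the reverse complement of AGGTCA, a half-site bound by nuclear receptors, retinoic acid receptors among them. The build is GRCm38.p6 and each gene lies on the plus strand.
Hoxc4, chr15:103034145-103034394: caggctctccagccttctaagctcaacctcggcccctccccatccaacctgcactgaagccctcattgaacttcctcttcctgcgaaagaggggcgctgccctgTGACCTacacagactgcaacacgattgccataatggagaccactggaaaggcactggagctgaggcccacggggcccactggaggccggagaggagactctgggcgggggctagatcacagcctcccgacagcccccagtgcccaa
Hoxb4, chr11:96318017-96318266: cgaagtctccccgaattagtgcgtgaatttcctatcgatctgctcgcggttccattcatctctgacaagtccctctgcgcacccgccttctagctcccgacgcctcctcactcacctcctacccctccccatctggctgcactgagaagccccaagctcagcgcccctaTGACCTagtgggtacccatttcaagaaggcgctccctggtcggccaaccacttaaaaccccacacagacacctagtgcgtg
Hoxd4, chr2:74721728-74721977: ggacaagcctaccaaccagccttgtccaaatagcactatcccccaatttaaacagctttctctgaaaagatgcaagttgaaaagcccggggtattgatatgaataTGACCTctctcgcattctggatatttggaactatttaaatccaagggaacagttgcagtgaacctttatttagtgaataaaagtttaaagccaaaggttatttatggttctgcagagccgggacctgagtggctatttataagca
The half-site starts 146 bases before the transcription start in Hoxc4, 145 bases in Hoxd4 and 81 bases in Hoxb4. Both strands were searched for AGGTCA. It was present in 6 of the 24 Hox promoters in the table (25%, 22 genes), the others being Hoxd3, Hoxd8 and Hoxd10, and in 14.02% of all 32851 promoters of the same length. A match is a run of letters and not a bound site. The Hox promoters held a median of 12.5 CG pairs in these 250 bases, against 6 over all promoters.

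Cofactor genes encode proteins that bind DNA together with Hox factors. Of the 12 cofactor genes with a probe set, 9 were measured, with a median of 0.11. Of these, 1 was called higher (11.1%, against 11.7% of all genes) and 0 lower. Meis2, a homeodomain partner of Hox and Pbx proteins, was higher on each of 4 probe sets. Their signals were 1220, 332, 855 and 3495 in DKK1 cells against 480, 101, 325 and 1167 in control cells, giving 1.45 (SD 0.14 between probe sets). Its relative Meis1 had 175 and 374 in DKK1 cells against 82.6 and 265 in control cells and was not called (0.71). Pbx2 was not called at 0.96 (SD 0.57 between 3 probe sets), and Pbx3 had 0.04. The call of Meis2 ended on the poly-A controls, at 0.84.

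Polycomb genes had a median close to that of all genes. Of 31 measured genes, 3 were called higher and 0 lower, 9.68% against 11.7% of all genes, with a median of 0.07. Ezh2, the histone methyltransferase of the complex, had 865 in DKK1 cells against 964 in control cells (−0.15). Bmi1, a core part of the complex that marks histone H2A, had 4027 and 3209 in DKK1 cells against 4236 and 3165 in control cells (−0.03). The signs of both changed with the scaling, to 0.21 for Ezh2 and 0.34 for Bmi1 on the hybridisation controls. The 3 called genes encode chromobox readers of the Polycomb mark, with Cbx7 at 1.64, Cbx6 at 1.11 and Cbx8 at 1.004. The call of Cbx8 ended under 6 of 12 alternatives and that of Cbx6 under 3 of 13. The Cbx7 value rests on 1 probe set, 371 in DKK1 cells against 108 in control cells, and with 2 dim probe sets of the opposite sign included it was 0.38.

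Trithorax and demethylase genes had 1 of 17 measured genes called higher (5.88%, against 11.7% of all genes), 0 lower and a median of 0.12. The gene called was Kmt2c, a histone methyltransferase of enhancers, at 1.11 (SD 0.39 between 4 probe sets), and its call ended under 7 of 13 alternatives. Kmt2a, the methyltransferase that keeps Hox genes active and is rearranged in leukaemia, had 338 and 554 in DKK1 cells against 268 and 317 in control cells (0.55) and was not called. On the poly-A controls Kmt2a was at −0.07.

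Among homeobox genes outside the clusters, 4 of 33 measured genes were called higher and 0 lower, with a median of 0.39. That share of 12.1% was close to the 11.7% of all genes. Prrx2, a factor of limb and skull mesenchyme, had 4660 in DKK1 cells against 471 in control cells (3.26). Six5 (1.18), the limb and heart gene Irx5 (1.10) and Msx1 (1.03), a factor of tooth and skull mesenchyme, were the other 3 called genes. Prrx1, the partner of Prrx2 in limb mesenchyme, was not called at 0.98 (SD 0.17 between 4 probe sets). The calls of Six5, Irx5 and Msx1 ended under 4 of 12, 2 of 13 and 6 of 11 alternatives, and that of Prrx2 under none of 13.

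Retinoic acid genes were called in both directions, 4 higher and 2 lower of 11 measured, with a median of 0.78. Of all measured genes, 11.7% were called higher and 6.91% lower. Aldh1a1, Cyp26b1, Rarb, Crabp1 and Crabp2 each had 1 signal below the filter. They counted as measured through the other array alone and were bound to differ. Aldh1a1, an enzyme that makes retinoic acid, had 2540 in DKK1 cells against 6.67 in control cells, at least 35.6-fold higher. Cyp26b1, an enzyme that breaks retinoic acid down, had 146 in DKK1 cells against 18.1 in control cells, at least 2.05-fold higher. The receptor gene Rarb had 108 in DKK1 cells against 40.1 in control cells, at least 1.51-fold higher and below 2-fold on that bound. The binding proteins of retinoic acid went the other way. Crabp2 had 41.8 in DKK1 cells against 480 in control cells, at least 6.74-fold lower, and Crabp1 had 45.8 in DKK1 cells against 303 in control cells, at least 4.25-fold lower. Nrip1, a corepressor of nuclear receptors, was called at 1.05, but its 5 measured probe sets spread with an SD of 1.19 and its call ended under 9 of 13 alternatives. Of those probe sets, 1 passed the filter through the DKK1 array alone, at 207 in DKK1 cells against 9.40 in control cells (3.10). With dim signals raised to the filter Nrip1 was 1.70-fold higher, below 2-fold.

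Genes around the clusters had a median below that of all genes. Of 23 measured flanking genes, 1 was called higher (4.35%, against 11.7% of all genes) and 0 lower, with a median of −0.06. Around Hoxa, 0 of 4 had a positive difference (median −0.59), and around Hoxb 4 of 8 (median −0.01). Around Hoxd, 1 of 5 did (median −0.32). Around Hoxc, 5 of 6 had a positive difference, with a median of 0.44. The called gene, Calcoco1, lies there, with 317 and 180 in DKK1 cells against 171 and 54.3 in control cells (1.15). Its second probe set passed the filter through the DKK1 array alone and gave 1.47, where the first gave 0.83. With dim signals raised to the filter Calcoco1 was 2.16-fold higher. Cbx5, which encodes a heterochromatin protein next to Hoxc, was not called at 0.95 (SD 0.59 between 3 probe sets). The call of Calcoco1 ended under 5 of 12 alternatives.

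**Figure D3:**
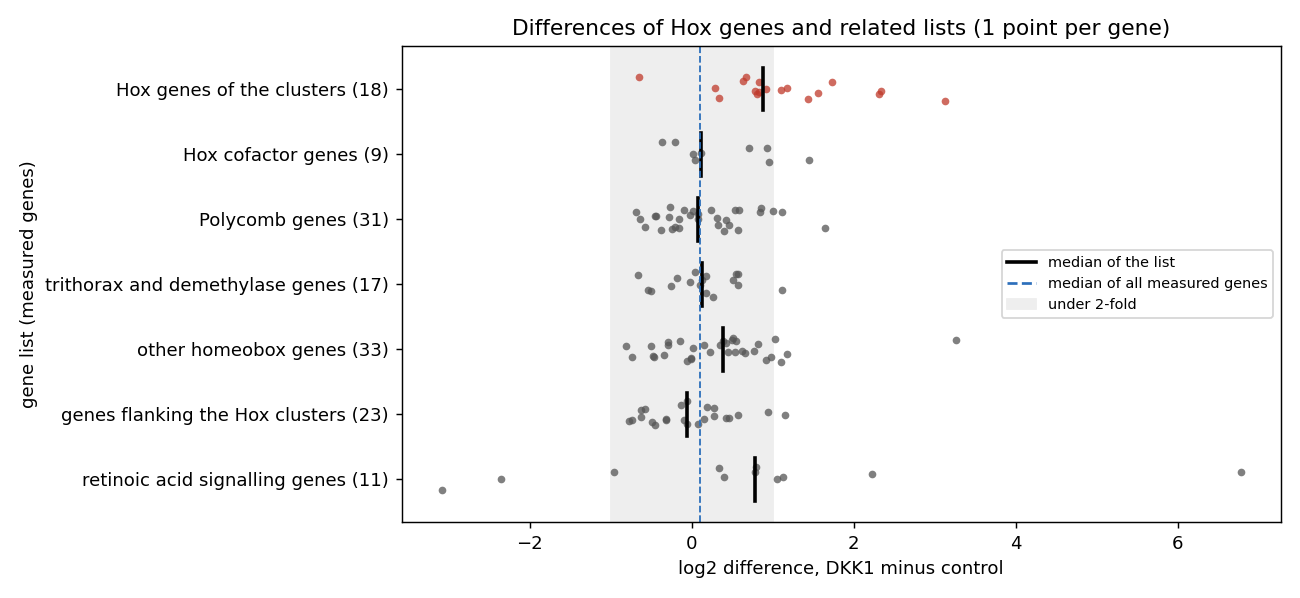
Log2 difference (DKK1 minus control) of each measured gene, 1 point a gene, in the Hox genes and the 6 related lists, with list medians as black bars, the median of all measured genes as a dashed line and differences under 2-fold in grey. The Hox median of 0.88 lies to the right of the other list medians, and retinoic acid genes spread in both directions.

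The size of the Hox differences depended on how the arrays were scaled. Hybridisation controls, spiked in after labelling, had a median log2 ratio of −0.37 (DKK1 over control), and poly-A controls, which pass through labelling, one of 0.64. Scaling on the first moved the median of all genes to 0.46 and that of the Hox genes to 1.21, with 13 called higher, where 21.6% of all genes were. Scaling on the second moved the median of all genes to −0.52 and that of the Hox genes to 0.31, with 4 called higher (Hoxb3, Hoxb5, Hoxb6 and Hoxc8) and 1 lower (Hoxa7), where 4.27% of all genes were called higher. Relative to the median of all genes, the Hox median was 0.75 higher with the hybridisation controls and 0.83 higher with the poly-A controls, against 0.78 as deposited. Under each of these scalings 17 of the 18 Hox genes lay above the median of all genes. Both scalings multiply a whole array by a constant and shift all genes nearly alike. The gap and the 17 genes could therefore hardly change, and give no separate check.

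**Figure D4:**
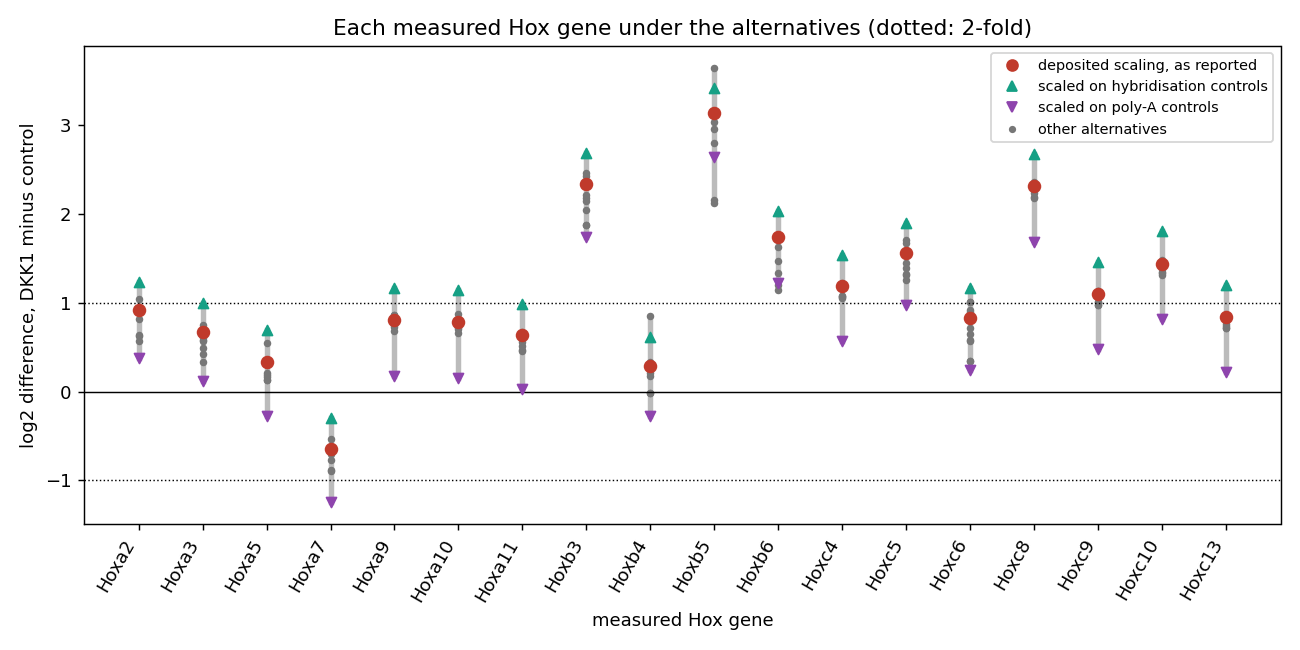
Log2 difference (DKK1 minus control) of each of the 18 measured Hox genes as reported (red) and under the alternatives, with triangles for the scalings on spike-in controls and dotted lines at 2-fold. Hoxb3, Hoxb5, Hoxb6 and Hoxc8 stay above the upper dotted line under each alternative that measured them, and Hoxa7 stays below 0.

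The cell type was checked against marker genes. The mesenchymal genes Vim, Prrx1, Twist1 and Pdgfrb were measured, and Thy1 was dim, at 47.3 in DKK1 cells against 12.3 in control cells. Of 7 osteoblast genes with a probe set 5 were measured, with summed signals of 42594 in DKK1 cells against 45017 in control cells. The bone genes Ibsp and Dmp1 were dim on both arrays. Ptprc, a marker of leukocytes, was dim on both arrays, at 5.89 and 4.24 in DKK1 cells against 2.11 and 11.7 in control cells. The endothelial genes Pecam1, Cdh5 and Tek were dim as well, while Kdr was measured, at 116 in DKK1 cells against 66.0 in control cells. The summed leukocyte markers, 3 of 6 measured, were 705 in DKK1 cells against 494 in control cells, the epithelial ones, 2 of 4 measured, were 633 in DKK1 cells against 418 in control cells, and the part of other cells in the Hox differences was not tested. These sums are led by the brightest probe sets, and single markers differed more. Pdgfrb had 18158 and 1401 in DKK1 cells against 4388 and 216 in control cells, and 1 Col1a1 probe set had 6263 in DKK1 cells against 2150 in control cells while the other had 1699 in DKK1 cells against 1640 in control cells. The measured Phex probe set had 1.97 in DKK1 cells against 199.9 in control cells. Its other probe set was dim, at 4.43 in DKK1 cells against 2.42 in control cells. The leukocyte gene Lyz2 had 136 in DKK1 cells against 14.5 in control cells. The measured probe sets of Phex, Lyz2 and Kdr passed the filter through 1 array alone and were bound to differ. The mouse Dkk1 probe sets gave 42.5 and 2.01 in DKK1 cells against 13.05 and 10.97 in control cells, and check nothing about the human transgene.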

How the data were processed

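The intensity values, 1 linear signal per probe set for 45101 probe sets on 2 arrays, were summarised by the authors with MAS5, per the submitters' processing notes. The sources used here give no MAS5 version or settings. After dropping 2% of probe sets at each end, signals averaged 500.003 on the DKK1 array and 500.004 on the control array, a common scale. Symbols came from the platform annotation, updated by gene ID through RefSeq GRCm38.p6. The pseudocount was the 25th percentile of all signals and the filter the median of the probe sets' mean signals, leaving 22499 measured probe sets. With 1 array a group no test was run, and precision is limited by the number of arrays. Every Hox gene was to be accounted for, and of each related list up to 6 called genes, with Ezh2, Bmi1, Kmt2a, Meis1 and Dkk1, were to be named. Others were added after their values were seen, and 1 item is not reported here. The members and lists were chosen with earlier results of these data known. Probe sets with several symbols were left out. The calling code was tested on simulated data. Alternatives covered pseudocount, filter, scaling, probe set choice and a floor. Python 3.11.15, pandas 2.3.3 and statsmodels 0.14.6 were used.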

Additional observations from a re-analysis of the deposited data

How the results depend on the processing

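Of 13 alternatives, scaling on the poly-A controls moved most values. It gave medians of 0.31 for Hox genes, 0.11 for Hoxa, 1.48 for Hoxb and 0.57 for Hoxc, and 0.38, 0.98 and 0.20 for anterior, central and posterior Hox genes. On it 4 Hox genes were called higher and 1 lower. The same scaling gave −0.51 for cofactors, −0.55 for Polycomb, −0.51 for trithorax and demethylase, −0.18 for other homeobox, −0.73 for flanking and −0.22 for retinoic acid genes. Scaling on the hybridisation controls called 13 Hox genes higher, and the filter at the 75th percentile, which measured 9 Hox genes, called 5, where 10.02% of all genes were called higher, and gave an anterior median of 1.76 against a central one of 1.22. Without the filter 10 of all 33 were called higher and 1 lower (Hoxd11), where 9.50% of all genes were called higher, with medians of 0.77 for Hoxb, 1.01 for central and 0.36 for posterior genes. Hoxd1 and Hoxd11, among those calls, are dim throughout. The other list and cluster medians moved by less than the pooled SD between probe sets, and the other counts by at most 1.5 times. Single genes with a dim signal moved more, with Hoxb5 at 2.13 and Hoxb6 at 1.15 on 4 times the pseudocount. Hoxc9 fell short of 2-fold after median centring (0.98) and quantile normalization (0.98). No Hoxd gene was measured, and dim signals are not ordered. No paired analysis was possible because each group has 1 array.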

Other observations

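Other transcripts of the clusters were read by probe sets outside the chosen symbols. Hoxa11os, the antisense RNA at Hoxa11, had 548 in DKK1 cells against 649 in control cells on its measured probe set, a difference of −0.24, where Hoxa11 itself had 0.63. Its other probe set was dim, at 9.95 in DKK1 cells against 0.975 in control cells. The antisense RNA Hoxb5os, which overlaps Hoxb5 and Hoxb6 in RefSeq, was dim on average, at 81.9 in DKK1 cells against 22.0 in control cells. Evx1os, beyond the posterior end of Hoxa, was dim, at 57.2 in DKK1 cells against 15.4 in control cells. Hoxd3os1 was dim on both probe sets, at 69.4 and 52.0 in DKK1 cells against 63.0 and 22.7 in control cells. The 3 probe sets shared by 2 Hox symbols were dim too. The 1 for Hoxb7 and Hoxb8 had 21.5 in DKK1 cells against 40.7 in control cells, and the 2 for Hoxd3 and Hoxd4 had 24.3 and 6.55 in DKK1 cells against 9.78 and 30.8 in control cells.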
